A study of Mus musculus with 15 samples.

Results

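Amino acid and neurotransmitter transporters are membrane proteins that move amino acids, their derivatives and small signalling molecules across the plasma membrane or the membranes of vesicles and lysosomes. The genes described here were all protein-coding genes whose symbols start with Slc1a, Slc3a, Slc6a, Slc7a, Slc36a, Slc38a or Slc43a, leaving out the astrocyte genes Slc1a2, Slc1a3 and Slc6a11. The rule found 61 of the 53801 genes in the count table, of which 60 encode carriers or their partner subunits and 1, Slc7a6os, is a neighbour of Slc7a6 with a similar name that encodes no transporter. They were measured by RNA-seq in 15 cultures of adult neural stem cells (aNSCs), dividing cells taken from the subventricular zone, the niche of the lateral ventricle wall, and grown in suspension with growth factors. The mice were 2 months old and of the strain C57BL6/J-129sv.

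All mice carried Rosa26-CreERT2, a broadly expressed inducible Cre recombinase that 4-hydroxytamoxifen (4-OHT) switches on. One group of 5 cultures carried 1 floxed Trrap allele and received no treatment (Fl/+ untreated). A second group of 5 had the same genotype and came from the same 5 mice (numbers 19, 24, 26, 35 and 36), but was given 4-OHT (Fl/+ 4-OHT). The third group of 5 cultures came from other mice (numbers 27, 28, 29, 37 and 39) with 2 floxed Trrap alleles and was also given 4-OHT (Fl/Fl 4-OHT). Trrap is the adaptor subunit of several histone acetyltransferase complexes, and the study used these cells to ask how transcription depends on it. The Fl/+ 4-OHT cultures can lose 1 Trrap allele, so exposure to 4-OHT and loss of 1 allele cannot be told apart in them. No untreated Fl/Fl culture was analysed here, so a difference between the mice of both genotypes that was there before 4-OHT cannot be told apart from Trrap deletion.

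Carriers of the SLC6 and SLC38 families draw their substrates in with sodium, and SLC6 members clear glycine, dopamine and serotonin from around neurons and also carry taurine and creatine. SLC7 light chains form heterodimers with an SLC3 heavy chain and exchange 1 amino acid for another, as LAT1 (Slc7a5) does for leucine and xCT (Slc7a11) does for cystine, while the cationic SLC7 carriers such as Slc7a1 bring in arginine and lysine. Amino acids that enter a cell are sensed at the lysosome by mTORC1, and their shortage raises the translation of the transcription factor ATF4, whose known target genes include several of these transporters.

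The total assigned counts per library ranged from 25720034 to 32187097. Trrap stood at 193, 214, 184, 179 and 181 counts per 1000000 (CPM, scaled by TMM factors) in the Fl/+ untreated cultures, listed here and throughout in the order of the mouse numbers 19, 24, 26, 35 and 36. It stood at 138, 204, 171, 165 and 142 CPM in the Fl/+ 4-OHT cultures of the same mice, and at 92.9, 115, 142, 89.2 and 82.8 CPM in the Fl/Fl 4-OHT cultures of mice 27, 28, 29, 37 and 39. Trrap was lower in Fl/Fl 4-OHT than in Fl/+ 4-OHT cultures (log2 change -0.64 with SE 0.16, adjusted p = 0.0115), with an overlap of the lowest Fl/+ 4-OHT and the highest Fl/Fl 4-OHT values. The sex-linked genes of 3 cultures did not match 1 labelled sex. The Fl/Fl 4-OHT culture of mouse 39, labelled female, expressed the Y-linked gene Ddx3y at 54 CPM and Xist at 0.313 CPM. The Fl/+ 4-OHT culture of mouse 36, labelled male, held both Ddx3y (52.9 CPM) and Xist (74.7 CPM). The untreated culture of that mouse held Xist at 5.89 CPM beside Ddx3y at 47.7 CPM, against 0.154 to 0.541 CPM of Xist in the cultures of the other male-labelled mice, so results are also given without the cultures of mice 36 and 39. Markers of neural stem cells summed to 5828 to 10414 CPM over the 15 cultures and astrocyte markers to 8831 to 14992 CPM, while all 8 microglial markers averaged under 1 CPM.

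Of the 61 genes, 6 had no count in any library (Slc6a14, Slc6a18, Slc6a21, Slc7a9, Slc7a12 and Slc7a13), which allows up to 3 counts or 0.0932 to 0.117 CPM per library. A further 17 had counts too low to be tested, with at most 23 counts in a library (Slc1a7, Slc6a2, Slc6a5, Slc6a7, Slc6a12, Slc6a13, Slc6a16, Slc6a19, Slc6a20a, Slc6a20b, Slc7a15, Slc36a2, Slc36a3, Slc38a4, Slc38a5, Slc38a8 and Slc38a11). The mean over the 15 libraries reached 1 CPM for 36 genes, 10 CPM for 23 and 100 CPM for 9.

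Per kilobase of exon, the heterodimer pair of Slc3a2, the heavy chain 4F2hc, and Slc7a5, the large neutral amino acid carrier LAT1, stood at 98.8 and 87.1 CPM per kb over all cultures. The neutral amino acid carrier Slc1a4 (63.2 CPM per kb) and the glycine transporter Slc6a9 (61.2 CPM per kb) were lower than that pair on average, and their ranges across cultures overlapped. Low in the order were carriers that mark particular neurons. The dopamine transporter Slc6a3 averaged 1.58 CPM and the serotonin transporter Slc6a4 0.924 CPM, and the noradrenaline transporter Slc6a2 and the neuronal glycine transporter Slc6a5 had at most 2 counts in a library.

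**Figure D1:**
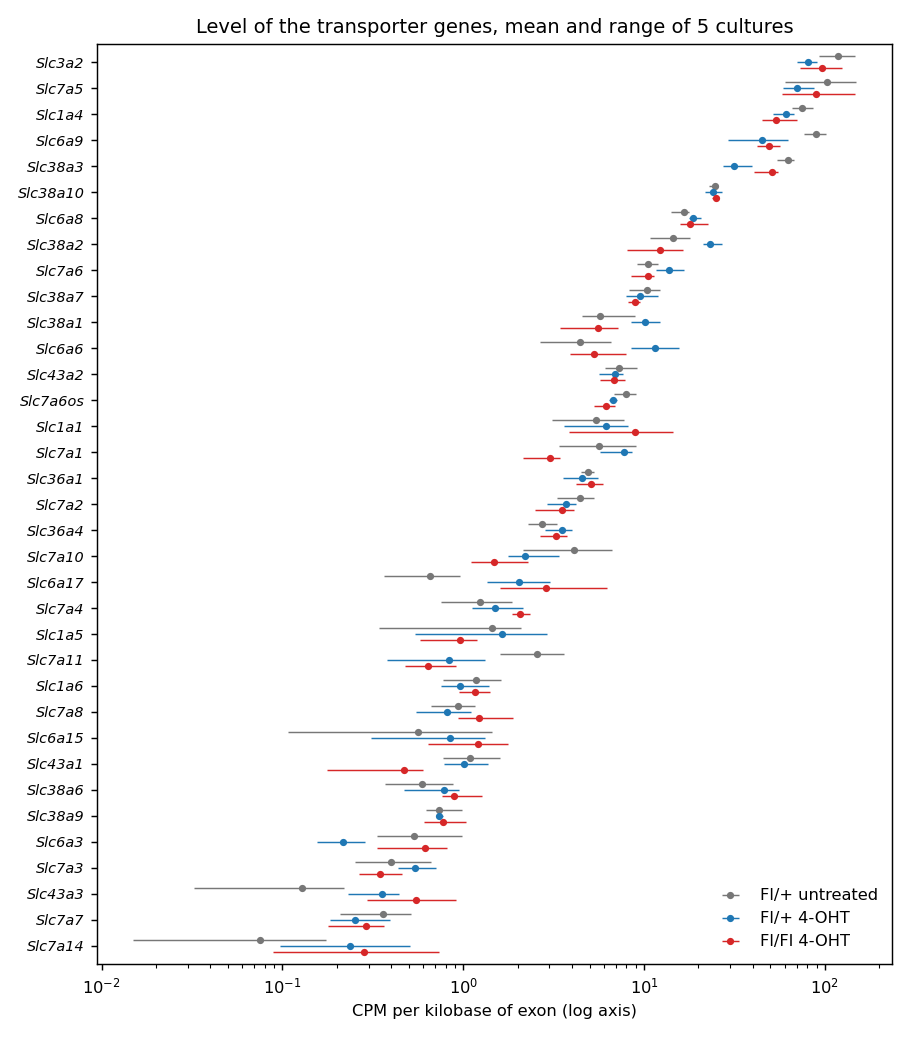
Level of 35 of the 36 genes that averaged 1 CPM or more, as CPM per kilobase of exon on a log axis (x), with the genes ordered by level (y). Points are means and bars the lowest to highest of 5 cultures; Slc3a2 averages 98.8 CPM per kb over all cultures, and the Fl/+ 4-OHT bars of Slc38a2 and Slc6a6 stand to the right, and those of Slc38a3 and Slc6a3 to the left, of both other groups.

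Promoter sequences of 4 of the called genes show what lies just before their RefSeq start sites. The study followed Sp1, a factor known to bind GC boxes, and ATF4 acts through short elements of its own. Other called genes with a window, such as Slc6a3, Slc7a6, Slc6a9 and Slc3a2, are not printed. The 250 bases before the RefSeq start (build GRCm38.p6) are given 5′ to 3′ on the strand of the gene. Capitals mark GC boxes (GGGCGG), C/EBP-ATF response elements (CARE, TGATGNAA) and antioxidant response elements (ARE, TGACNNNGC), searched on both strands. No match printed here overlaps another. All these genes lie on the minus strand except Slc43a1, and the windows are chr3:50443614-50443863, chr15:96699729-96699978, chr5:148399905-148400154 and chr2:84840073-84840322 in the order printed.
Slc7a11: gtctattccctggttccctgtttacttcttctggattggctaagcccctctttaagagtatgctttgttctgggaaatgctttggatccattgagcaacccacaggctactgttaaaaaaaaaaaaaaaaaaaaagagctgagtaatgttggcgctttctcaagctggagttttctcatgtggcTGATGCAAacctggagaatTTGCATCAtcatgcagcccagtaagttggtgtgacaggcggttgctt
Slc38a2: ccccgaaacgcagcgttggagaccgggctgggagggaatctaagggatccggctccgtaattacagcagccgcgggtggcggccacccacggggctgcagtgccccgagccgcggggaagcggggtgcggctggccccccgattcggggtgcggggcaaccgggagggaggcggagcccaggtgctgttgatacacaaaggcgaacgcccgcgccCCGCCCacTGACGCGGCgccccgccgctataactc
Slc7a1: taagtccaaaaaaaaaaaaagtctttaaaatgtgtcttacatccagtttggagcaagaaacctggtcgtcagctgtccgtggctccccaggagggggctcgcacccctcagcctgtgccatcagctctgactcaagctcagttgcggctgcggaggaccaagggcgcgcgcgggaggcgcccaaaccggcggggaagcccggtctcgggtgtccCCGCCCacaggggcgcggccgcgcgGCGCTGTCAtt
Slc43a1: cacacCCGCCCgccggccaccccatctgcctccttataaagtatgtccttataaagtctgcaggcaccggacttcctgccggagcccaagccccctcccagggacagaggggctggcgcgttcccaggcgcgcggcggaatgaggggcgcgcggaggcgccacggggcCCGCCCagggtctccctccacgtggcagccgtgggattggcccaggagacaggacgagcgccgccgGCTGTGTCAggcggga
The Slc7a11 window held a pair of CARE matches facing each other, on the plus strand at -66 and on the minus strand at -47 from the start, and no GC box. The Slc38a2, Slc7a1 and Slc43a1 windows held 1, 1 and 2 GC boxes and 1 ARE match each, the latter at -27, -11 and -16. An E-box (CACGTG) at -64 of Slc43a1 is not in capitals. Slc7a1 has another RefSeq start, whose window held none of these motifs, and the start used for Slc43a1 lies inside the annotated gene.

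A window was found for 26 of the 38 transporter genes tested in the Trrap deletion comparison. Genes with several windows were counted if any of these held a match. GC boxes stood in 20 of the 26, against 64.3% of the 11019 genes tested in that comparison that have a window and 35.4% of all 27025 genes with one. CARE matches stood in 2 of the 26 (Slc7a11 and Slc7a7), against 2.3% of the tested and 3.91% of all genes, and ARE matches in 5 of the 26, against 14.0% and 11.5%. The E-box CACGTG, which reads the same on both strands, was found in 6 of the 26, against 9.7% and 6.86%. Among the 5 genes called in the Trrap deletion comparison that have a window, Slc7a1, Slc38a2, Slc43a1, Slc6a3 and Slc7a6, all 5 held a GC box and 4, all but Slc6a3, held an ARE match. Slc7a6, like Slc7a1, has another window that held neither. Of the 7 called after 4-OHT that have a window, 5 held a GC box and 3 an ARE match, and of the 8 called in the joint comparison 6 and 3. CARE matches stood in 0 of these 5, 1 of these 7 and 1 of these 8 genes. These letters describe the windows, and no binding is reported here.

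In the Trrap deletion comparison (Fl/Fl 4-OHT against Fl/+ 4-OHT), 38 of the 61 genes passed the filter on low counts and 8 were called at an adjusted p under 0.05 by edgeR, with 11 below an unadjusted p of 0.05. The sodium-coupled neutral amino acid carriers Slc38a1 and Slc38a2, the taurine transporter Slc6a6, the arginine and lysine carrier Slc7a1, the exchanger Slc7a6 and the leucine carrier Slc43a1 were lower in Fl/Fl 4-OHT cultures. The glutamine carrier Slc38a3 and the dopamine transporter Slc6a3 were higher. The genome-wide share called was 31.7%, with 16.8% higher and 15.0% lower, so 8 of 38 was not above it. The 5 values of each group did not overlap for 8 of the 38 members (21.1%), against 22.6% of all tested genes. The median log2 fold change was 0.07 over the 38 genes and 0.02 over all tested genes. Without the cultures of mice 36 and 39, 7 members were called, all among these 8, and Slc7a6 was the one lost, with 23.2% of all tested genes called. In bulk RNA, fewer cells of a type and less RNA per cell cannot be told apart.

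In the 4-OHT comparison (Fl/+ 4-OHT against Fl/+ untreated), 37 genes were tested and 11 were called. The vesicular carrier Slc6a17, Slc43a3, Slc6a6, Slc38a1, Slc38a2 and Slc7a6 were higher after 4-OHT. The cystine carrier Slc7a11, Slc6a3, the glycine transporter Slc6a9, Slc38a3 and the heavy chain Slc3a2 were lower. All 11 moved in the same direction in the 5 mice. The genome-wide share called was 13.8%, with 7.34% higher and 6.45% lower. The groups did not overlap for 9 of the 37 members (24.3%), against 12.0% of all tested genes, and overlapped for Slc38a1 and Slc7a6 among those called. The median log2 fold change was -0.03 over the 37 genes and -0.01 over all tested genes. With the mouse number as a block, 18 of 37 members were called, 9 in each direction, including all 11, and 25.7% of all tested genes were called. The 7 added were Slc7a5, Slc7a1, Slc1a4, Slc36a4, Slc7a2, Slc7a10 and Slc7a14, with adjusted p-values of 0.0187 to 0.0384. Without mouse 36, 8 of 38 members were called, against 10.8% of all tested genes, and Slc6a3, Slc43a3 and Slc7a6 were lost. The share of counts from mitochondrial genes was 1.72%, 2.39%, 2.71%, 3.56% and 2.24% in the untreated and 1.74%, 0.849%, 1.16%, 1.52% and 1.73% in the Fl/+ 4-OHT cultures, lower in 4 of 5 mice, and 1.36% to 2.19% in Fl/Fl 4-OHT cultures. Its part in the values after 4-OHT was not tested.

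In the comparison that joins both factors (Fl/Fl 4-OHT against Fl/+ untreated), 38 genes were tested and 10 were called. Slc6a17, Slc43a3 and Slc7a4 were higher, and Slc7a11, Slc7a10, Slc43a1, Slc7a1, Slc6a9, Slc1a4 and Slc7a6os were lower. The genome-wide share was 30.7%, with 15.7% higher and 15.1% lower. The groups did not overlap for Slc6a17, Slc43a3, Slc7a11, Slc6a9 and Slc43a1, that is 5 of 38, against 23.1% of all tested genes. The median was -0.04 over the 38 genes and 0.00 over all tested genes. Without the cultures of mice 36 and 39, 8 members were called, against 26.6% of all tested genes. The Trrap deletion and 4-OHT comparisons share the Fl/+ 4-OHT libraries, and the other pairs of comparisons share a group as well, so their values are set side by side and their agreement was not tested. Of the 8 members called after Trrap deletion, 6 were also called after 4-OHT, each in the opposite direction. They were Slc38a1, Slc38a2, Slc38a3, Slc6a3, Slc6a6 and Slc7a6, and edgeR called none of them in the joint comparison.

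**Figure D2:**
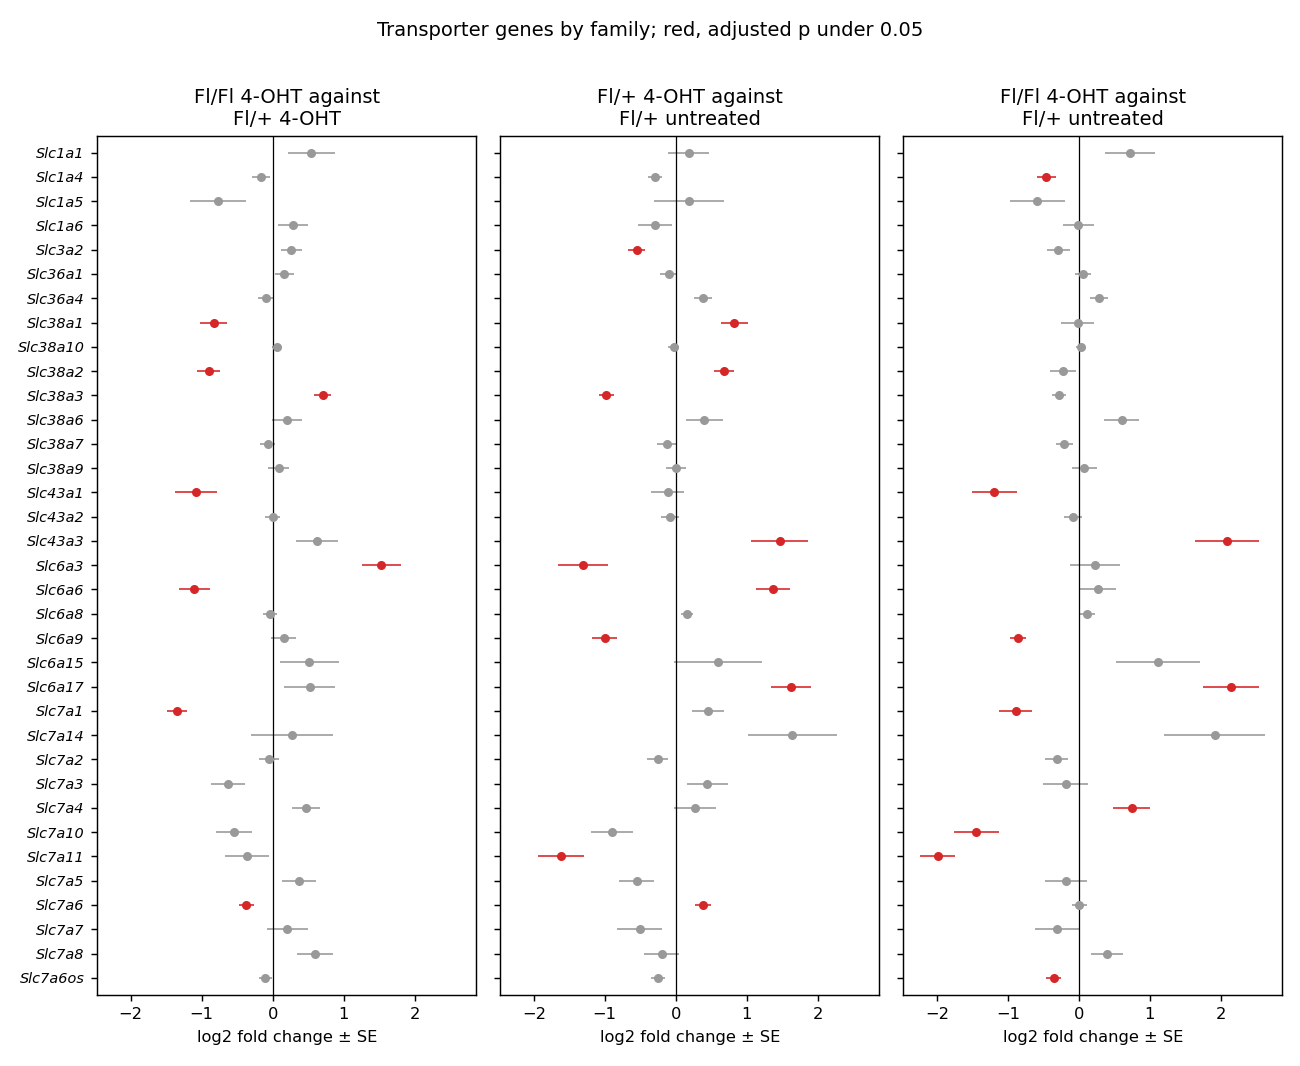
log2 fold change with its SE (x) of 35 of the 36 genes that averaged 1 CPM or more, grouped by family (y), in the 3 comparisons. Red points passed an adjusted p under 0.05 by edgeR (8, 11 and 10 genes from left to right); the Fl/+ 4-OHT libraries enter both the left and the middle panel.

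Of the 7 tested SLC38 carriers, the same 3 (42.9%) were called in each of the first 2 comparisons, where 31.7% and 13.8% of all tested genes were called. These were Slc38a1, Slc38a2 and Slc38a3, each in opposite directions in these comparisons, which share the Fl/+ 4-OHT libraries. With the mouse block the same 3 were called after 4-OHT, against 25.7% of all tested genes. In the joint comparison edgeR called 0 of 7, against 30.7%, with 2 under an unadjusted p of 0.05 (Slc38a3 and Slc38a6), and DESeq2 called 1, Slc38a3. Gene positions are given in GRCm38 with the strand and span the whole annotated gene. Slc38a1 (SNAT1, chr15:96571418-96642913, minus strand), which takes up glutamine, stood at 77.9, 154, 95.9, 85.4 and 78.3 CPM in Fl/+ untreated cultures. It stood at 194, 211, 146, 161 and 156 CPM in Fl/+ 4-OHT and at 58.9, 118, 125, 91 and 89.8 CPM in Fl/Fl 4-OHT cultures. Every Fl/+ 4-OHT culture was above every Fl/Fl 4-OHT culture, and the untreated culture of mouse 24 reached into the treated range. Slc38a1 was 1.78-fold lower in Fl/Fl 4-OHT than in Fl/+ 4-OHT cultures (log2 change -0.83 with SE 0.19, adjusted p = 0.00628) and 1.77-fold higher after 4-OHT in Fl/+ cultures (log2 change 0.82 with SE 0.19, adjusted p = 0.0171). Between Fl/Fl 4-OHT and Fl/+ untreated cultures its log2 fold change was -0.01 (SE 0.23, adjusted p = 0.97).

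Slc38a2 (SNAT2, chr15:96687392-96699730, minus strand), a carrier of small neutral amino acids known to be induced when amino acids run short, lies beside Slc38a1 on chromosome 15. It stood at 143, 159, 137, 95.2 and 107 CPM in Fl/+ untreated, 226, 237, 187, 190.5 and 187 CPM in Fl/+ 4-OHT and 71.3, 115, 145, 113 and 101 CPM in Fl/Fl 4-OHT cultures. All Fl/+ 4-OHT cultures were above all others. Slc38a2 was 1.87-fold lower in the Trrap deletion comparison (log2 change -0.90 with SE 0.16, adjusted p = 0.00208) and 1.6-fold higher in the 4-OHT comparison (log2 change 0.68 with SE 0.14, adjusted p = 0.0106). In the joint comparison its value was -0.22 (SE 0.19, adjusted p = 0.405). Slc38a4, the third gene of this stretch of chromosome 15, had at most 1 count in a library.

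Slc38a3 (SNAT3, chr9:107650634-107669530, minus strand), a glutamine carrier that can also release it, had its lowest values where Slc38a1 and Slc38a2 had their highest, in the Fl/+ 4-OHT group. It stood at 333, 286, 333, 357 and 335 CPM in Fl/+ untreated, 165, 161, 208, 154 and 144 CPM in Fl/+ 4-OHT and 284, 292, 288, 213 and 269.9 CPM in Fl/Fl 4-OHT cultures. The Fl/+ 4-OHT cultures lay below both other groups, and the culture of mouse 37 was the lowest Fl/Fl 4-OHT culture. It was 1.63-fold higher after Trrap deletion (log2 change 0.71 with SE 0.12, adjusted p = 0.00151) and 1.97-fold lower after 4-OHT (log2 change -0.98 with SE 0.11, adjusted p = 0.000457), with -0.27 (SE 0.10, adjusted p = 0.0591) in the joint comparison. The other tested SLC38 genes, Slc38a6, Slc38a10 and the lysosomal carriers Slc38a7 and Slc38a9, passed no test, with log2 fold changes of -0.07 to 0.21 in the Trrap deletion and -0.13 to 0.40 in the 4-OHT comparison.

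**Figure D3:**
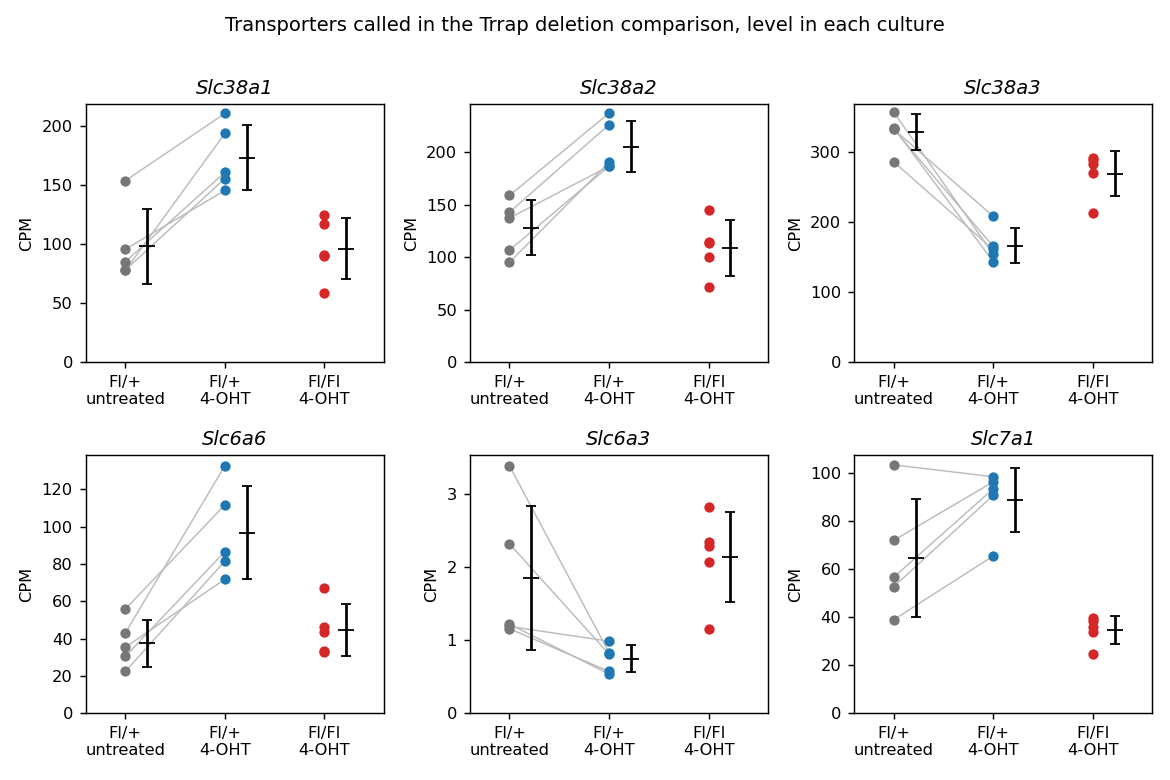
CPM of 6 genes called in the Trrap deletion comparison (y, from 0) by group (x). Points are single cultures, grey lines join the Fl/+ cultures of 1 mouse and black bars give the mean ± SD of 5; Slc38a1, Slc38a2 and Slc6a6 were high and Slc38a3 and Slc6a3 low in Fl/+ 4-OHT cultures, and Slc7a1 was 24.8 to 39.7 CPM in Fl/Fl 4-OHT cultures.

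Among the SLC6 carriers of neurotransmitters and osmolytes, the taurine transporter Slc6a6 (chr6:91684053-91759066, plus strand) stood at 43, 35.4, 55.9, 30.5 and 22.5 CPM in Fl/+ untreated cultures. It rose to 133, 71.8, 112, 86.7 and 81.5 CPM in the Fl/+ 4-OHT cultures and stood at 32.8, 43.8, 33.7, 66.9 and 46.5 CPM in Fl/Fl 4-OHT cultures. Each treated Fl/+ culture was above all cultures of both other groups. Slc6a6 was 2.59-fold higher after 4-OHT (log2 change 1.37 with SE 0.24, adjusted p = 0.00437) and 2.15-fold lower after Trrap deletion (log2 change -1.10 with SE 0.21, adjusted p = 0.00334). Its log2 fold change in the joint comparison was 0.27 (SE 0.25, adjusted p = 0.458).

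Slc6a3 (chr13:73536747-73578672, plus strand), which clears dopamine, was low throughout. It stood at 1.16, 1.22, 1.19, 3.39 and 2.32 CPM in Fl/+ untreated, 0.575, 0.538, 0.988, 0.832 and 0.811 CPM in Fl/+ 4-OHT and 2.83, 2.35, 2.06, 1.16 and 2.29 CPM in Fl/Fl 4-OHT cultures. The Fl/+ 4-OHT cultures were the lowest, below 1 CPM in all 5. Slc6a3 was 2.89-fold higher after Trrap deletion (log2 change 1.53 with SE 0.27, adjusted p = 0.00197) and lower after 4-OHT (log2 change -1.30 with SE 0.36, adjusted p = 0.0325). Its log2 fold change in the joint comparison was 0.22 (SE 0.35, adjusted p = 0.667). The call in the 4-OHT comparison was lost without the untreated culture of mouse 35 or 36 or the 4-OHT culture of mouse 19, 24, 35 or 36, with adjusted p-values of 0.0514 to 0.0867. These fits did not use the pairing by mouse, and with the mouse block and all cultures the call was kept (adjusted p = 0.0148).

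Slc6a9 (GlyT1, chr4:117834506-117875198, plus strand), which takes up glycine, stood at 394, 463, 521, 500.2 and 427 CPM in Fl/+ untreated cultures. It stood at 151, 248, 323, 228 and 199 CPM in Fl/+ 4-OHT and 291, 217, 280.3, 222 and 254 CPM in Fl/Fl 4-OHT cultures. Every untreated culture was above every culture given 4-OHT, and the treated groups overlapped. Slc6a9 was 2.0-fold lower after 4-OHT in Fl/+ cultures (log2 change -1.0 with SE 0.18, adjusted p = 0.00447) and 1.81-fold lower in Fl/Fl 4-OHT than in Fl/+ untreated cultures (log2 change -0.85 with SE 0.11, adjusted p = 0.00044), with 0.15 (SE 0.18, adjusted p = 0.543) in the Trrap deletion comparison. The creatine transporter Slc6a8 was uncalled in all 3 comparisons, at 87.1 ± 7.95, 97.1 ± 6.19 and 93.7 ± 14.4 CPM (mean ± SD, n = 5 each).

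Of the SLC6 amino acid carriers and orphans, 2 of 10 passed the filter. Slc6a17 (chr3:107467543-107518018, minus strand), which loads neutral amino acids into synaptic vesicles, stood at 8.43, 6.45, 5.32, 9.81 and 3.76 CPM in Fl/+ untreated cultures. It stood at 20.4, 20.5, 13.9, 31.1 and 18.2 CPM in Fl/+ 4-OHT and 20.6, 20.3, 16.5, 64.4 and 26.6 CPM in Fl/Fl 4-OHT cultures. All 10 cultures given 4-OHT were above all untreated ones. Slc6a17 was 3.09-fold higher after 4-OHT (log2 change 1.63 with SE 0.28, adjusted p = 0.00387) and 4.43-fold higher in Fl/Fl 4-OHT than in Fl/+ untreated cultures (log2 change 2.15 with SE 0.40, adjusted p = 0.0024). In the Trrap deletion comparison it was not called (log2 change 0.52 with SE 0.35, adjusted p = 0.288). Slc6a15, a carrier of branched-chain amino acids and proline, spread over 0.837 to 11.2 CPM in untreated, 2.41 to 10.2 CPM in Fl/+ 4-OHT and 4.98 to 13.8 CPM in Fl/Fl 4-OHT cultures and was called in none of the comparisons.

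The cationic carrier Slc7a1 (CAT1, chr5:148327410-148399904, minus strand) showed the smallest adjusted p of the transporter genes in the Trrap deletion comparison. It stood at 56.7, 52.7, 39, 72.1 and 103 CPM in Fl/+ untreated, 93.5, 90.8, 65.5, 96.4 and 98.6 CPM in Fl/+ 4-OHT and 36.1, 34, 24.8, 38.5 and 39.7 CPM in Fl/Fl 4-OHT cultures. All Fl/Fl 4-OHT cultures were below all Fl/+ 4-OHT cultures, and the untreated cultures overlapped both groups. Slc7a1 was 2.54-fold lower after Trrap deletion (log2 change -1.35 with SE 0.14, adjusted p = 0.000117) and 1.85-fold lower in the joint comparison (log2 change -0.89 with SE 0.23, adjusted p = 0.0136). In the 4-OHT comparison it was not called (log2 change 0.46 with SE 0.23, adjusted p = 0.203) and was called with the mouse block (adjusted p = 0.0195) or without the untreated culture of mouse 36 (log2 fold change 0.69, adjusted p = 0.0246).

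Slc7a4 (chr16:17572018-17583214, minus strand), an SLC7 member of the cationic group with no settled substrate, stood at 6.73, 7.78, 4.83, 3.12 and 3.24 CPM in Fl/+ untreated, 4.63, 8.86, 7.43, 5.17 and 4.97 CPM in Fl/+ 4-OHT and 7.74, 8.6, 9.73, 8.78 and 7.81 CPM in Fl/Fl 4-OHT cultures. The untreated and Fl/Fl 4-OHT values touched at the untreated culture of mouse 24. It was called higher in the joint comparison (log2 change 0.74 with SE 0.26, adjusted p = 0.0467), and the call was lost in 8 of the 10 fits that left out 1 culture, in all but those without the untreated culture of mouse 19 or 24, with adjusted p-values of 0.0658 to 0.0941. It was also lost with no filter on low counts (0.0555) and without the cultures of mice 36 and 39 (0.105). The other cationic members Slc7a2, Slc7a3 and Slc7a14 were not called in any comparison without the block, with group means of 32.3 to 40.4 CPM for Slc7a2, 1.32 to 2.06 for Slc7a3 and 0.738 to 2.79 for Slc7a14. With the mouse block Slc7a2 was called lower after 4-OHT (log2 fold change -0.25, adjusted p = 0.0352, lower in 5 of 5 mice) and Slc7a14 higher (1.76, adjusted p = 0.0384, higher in 5 of 5).

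Of the heterodimer members, Slc7a11 (xCT, chr3:49892526-50443614, minus strand) brings in cystine for glutathione in exchange for glutamate. It stood at 26.8, 50.1, 22.3, 38.1 and 40.8 CPM in Fl/+ untreated, 7.54, 18.4, 5.29, 13.3 and 13.4 CPM in Fl/+ 4-OHT and 9.35, 8.77, 7.05, 6.65 and 12.7 CPM in Fl/Fl 4-OHT cultures. Each untreated culture was above every culture given 4-OHT, while both treated groups overlapped. Slc7a11 was 3.07-fold lower after 4-OHT in Fl/+ cultures (log2 change -1.62 with SE 0.33, adjusted p = 0.00923) and 3.96-fold lower in the joint comparison (log2 change -1.99 with SE 0.24, adjusted p = 0.000282). It was not called in the Trrap deletion comparison (log2 change -0.36 with SE 0.31, adjusted p = 0.392). Whether the 2 facing CARE matches in its window have a part in these values was not tested.

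Slc3a2 (chr19:8706882-8723369, minus strand), the heavy chain with which Slc7a11, Slc7a5, Slc7a6 and other light chains pair, stood at 442, 416, 326, 518 and 395 CPM in Fl/+ untreated cultures. It stood at 246, 284, 274, 319.6 and 308 CPM in Fl/+ 4-OHT and 273, 258, 338, 393 and 439 CPM in Fl/Fl 4-OHT cultures. The untreated and Fl/+ 4-OHT ranges did not overlap, and Slc3a2 was 1.46-fold lower after 4-OHT (log2 change -0.55 with SE 0.12, adjusted p = 0.0147). It was uncalled in the Trrap deletion (log2 change 0.26 with SE 0.14, adjusted p = 0.181) and the joint comparison (log2 change -0.29 with SE 0.16, adjusted p = 0.206).

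Slc7a5 (LAT1, chr8:121881150-121907694, minus strand), the leucine carrier of this pair, stood at 362, 268, 223, 553 and 492 CPM in Fl/+ untreated, 226, 220.4, 217, 322 and 309 CPM in Fl/+ 4-OHT and 227, 215, 314, 350.1 and 548 CPM in Fl/Fl 4-OHT cultures. The ranges of all 3 groups overlapped, and the untreated cultures of mice 35 and 36 and the Fl/Fl 4-OHT culture of mouse 39 were the highest. The log2 fold changes were 0.37 (SE 0.24, adjusted p = 0.261) after Trrap deletion and -0.55 (SE 0.24, adjusted p = 0.156) after 4-OHT. It was lower in 5 of 5 mice after 4-OHT and was called with the mouse block (log2 fold change -0.49, adjusted p = 0.0187).

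**Figure D4:**
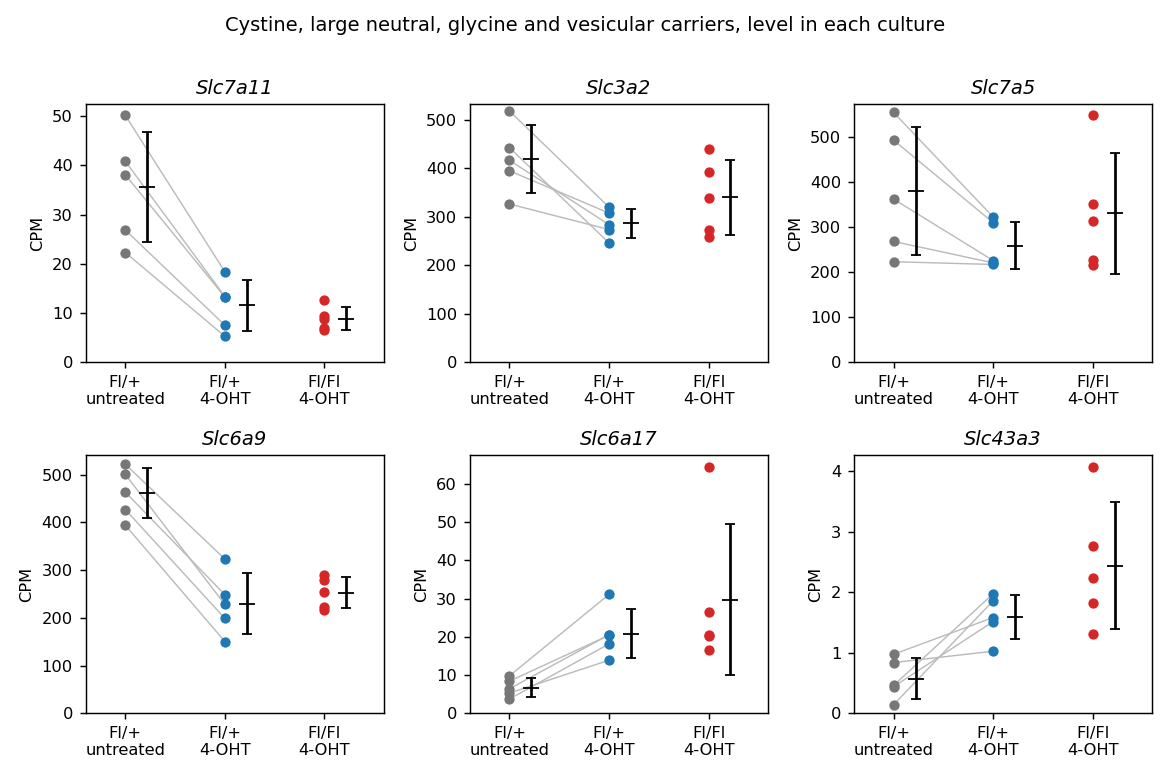
CPM of 6 genes (y, from 0) by group (x), drawn as single cultures with grey lines joining the Fl/+ cultures of 1 mouse and black bars for the mean ± SD of 5. Slc7a11, Slc3a2 and Slc6a9 were lower and Slc6a17 and Slc43a3 higher in all 5 Fl/+ 4-OHT cultures than in the untreated cultures, while Slc7a5 overlapped between groups.

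Slc7a6 (chr8:106168857-106198706, plus strand), a light chain that exchanges cationic for neutral amino acids, stood at 47.8, 43.9, 42, 51.8 and 54.9 CPM in Fl/+ untreated, 76.3, 56.2, 53.4, 63 and 63.2 CPM in Fl/+ 4-OHT and 46.4, 52, 51.2, 38.8 and 50.6 CPM in Fl/Fl 4-OHT cultures. The Fl/+ 4-OHT cultures were above the Fl/Fl 4-OHT cultures and overlapped the untreated ones. It was 1.29-fold lower after Trrap deletion (log2 change -0.37 with SE 0.11, adjusted p = 0.0257) and 1.3-fold higher after 4-OHT (log2 change 0.38 with SE 0.11, adjusted p = 0.0468). The first call was lost without the Fl/Fl 4-OHT culture of mouse 27 (adjusted p = 0.0529). The second was lost in 8 of the 10 fits that left out 1 culture, in all but those without the untreated culture of mouse 36 or the 4-OHT culture of mouse 26 (adjusted p-values 0.0521 to 0.107). With the mouse block it was kept (adjusted p = 0.0139). In the joint comparison the log2 fold change of Slc7a6 was 0.005 (SE 0.11, adjusted p = 0.975).

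Its neighbour Slc7a6os, on the opposite strand of chromosome 8, averaged 33.6 ± 3.61, 28.3 ± 1.33 and 26 ± 2.6 CPM (SD, n = 5) in the 3 groups. It was called lower in the joint comparison (log2 change -0.36 with SE 0.11, adjusted p = 0.0281), and lost the call without the untreated culture of mouse 19, 24 or 26 or the Fl/Fl 4-OHT culture of mouse 28, 37 or 39 (adjusted p-values 0.0527 to 0.063), with library size alone (log2 fold change -0.26, adjusted p = 0.103), with no filter on low counts (0.0679) and without the cultures of mice 36 and 39 (0.0584). The counting was stranded.

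Slc7a10 (Asc-1, chr7:35186385-35201114, plus strand), a carrier of glycine and serine including D-serine, stood at 8.76, 4.5, 9.76, 14 and 6.08 CPM in Fl/+ untreated, 3.72, 4.08, 7.11, 4.09 and 4.13 CPM in Fl/+ 4-OHT and 4.82, 2.35, 3.05, 2.51 and 2.95 CPM in Fl/Fl 4-OHT cultures. Of the treated cultures, the Fl/+ 4-OHT culture of mouse 26 and the Fl/Fl 4-OHT culture of mouse 27 lay within the untreated range. It was 2.72-fold lower in the joint comparison (log2 change -1.44 with SE 0.31, adjusted p = 0.00558). Its log2 fold changes in the other comparisons were -0.54 (SE 0.25, adjusted p = 0.121) after Trrap deletion and -0.90 (SE 0.30, adjusted p = 0.0717) after 4-OHT, where the mouse block called it (-0.83, adjusted p = 0.0356, lower in 5 of 5 mice). The light chains Slc7a7 and Slc7a8 and the heavy chain Slc3a1 were called in no comparison, with log2 fold changes after Trrap deletion of 0.21, 0.60 and -0.44.

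Of the SLC1 carriers, Slc1a4 (ASCT1, chr11:20302180-20332713, minus strand), an exchanger of alanine, serine and cysteine, averaged 293 ± 33.3, 239.7 ± 23.5 and 212 ± 41.6 CPM in the 3 groups (SD, n = 5). It was called lower in the joint comparison (log2 change -0.46 with SE 0.13, adjusted p = 0.0236), and lost the call without the untreated culture of mouse 26 or the Fl/Fl 4-OHT culture of mouse 27, 28 or 29 (adjusted p-values 0.054 to 0.0589). After 4-OHT its value was -0.29 (SE 0.10, adjusted p = 0.084), and the mouse block called it lower (-0.29, adjusted p = 0.0216, lower in 5 of 5 mice).

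The glutamine exchanger Slc1a5 (ASCT2, chr7:16781340-16798274, plus strand) stood at 7.71, 8.68, 1.43, 5.58 and 6.74 CPM in Fl/+ untreated, 6.89, 12.1, 2.25, 9.12 and 3.88 CPM in Fl/+ 4-OHT and 4.19, 4.52, 3.8, 2.4 and 5.0 CPM in Fl/Fl 4-OHT cultures. Both cultures of mouse 26 were the lowest of their groups. Slc1a5 was called in no comparison, with -0.77 (SE 0.39, adjusted p = 0.157) after Trrap deletion and 0.19 (SE 0.49, adjusted p = 0.837) after 4-OHT. Without the 4-OHT culture of mouse 26 it was called lower after Trrap deletion (log2 fold change -1.0, adjusted p = 0.0348), and without the untreated culture of that mouse in the joint comparison (-0.84, adjusted p = 0.0236). The glutamate transporters Slc1a1 and Slc1a6 passed no test, with 0.54 and 0.29 after Trrap deletion.

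Of the SLC43 family, Slc43a1 was called after Trrap deletion and Slc43a3 after 4-OHT, and whether their effects differ between the comparisons was not tested. Slc43a1 (LAT3, chr2:84838850-84863594, plus strand), a facilitated leucine carrier, stood at 7.02, 9.1, 4.44, 4.85 and 5.74 CPM in Fl/+ untreated, 6.22, 7.88, 4.5, 4.89 and 5.29 CPM in Fl/+ 4-OHT and 3.08, 3.43, 3.11, 1.01 and 2.85 CPM in Fl/Fl 4-OHT cultures. Every Fl/Fl 4-OHT culture was below every Fl/+ culture. It was 2.11-fold lower after Trrap deletion (log2 change -1.08 with SE 0.29, adjusted p = 0.0173) and 2.29-fold lower in the joint comparison (log2 change -1.19 with SE 0.32, adjusted p = 0.0154), with -0.11 (SE 0.23, adjusted p = 0.788) after 4-OHT.

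Slc43a3 (chr2:84936579-84958509, plus strand), which is known to carry purine nucleobases and not amino acids, stood at 0.145, 0.977, 0.839, 0.462 and 0.442 CPM in Fl/+ untreated, 1.86, 1.58, 1.03, 1.98 and 1.52 CPM in Fl/+ 4-OHT and 2.76, 2.24, 1.31, 1.82 and 4.06 CPM in Fl/Fl 4-OHT cultures. All untreated cultures were below 1 CPM and all treated ones above it. Slc43a3 was 2.76-fold higher after 4-OHT (log2 change 1.47 with SE 0.40, adjusted p = 0.033) and 4.26-fold higher in the joint comparison (log2 change 2.09 with SE 0.45, adjusted p = 0.00556), with 0.63 (SE 0.30, adjusted p = 0.131) after Trrap deletion. The call after 4-OHT was lost without the untreated culture of mouse 35 or 36 or the 4-OHT culture of mouse 19, 24, 35 or 36, with adjusted p-values of 0.0532 to 0.0764. With the mouse block and all cultures it was kept (adjusted p = 0.0294). Slc43a2 and the proton-coupled carriers Slc36a1 and Slc36a4 were not called in any comparison without the block, with 0.00, 0.16 and -0.09 after Trrap deletion. With the mouse block Slc36a4 was called higher after 4-OHT (0.38, adjusted p = 0.0226, higher in 5 of 5 mice).

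The genes that act around these carriers were counted in 6 lists. Of all tested genes, 31.7% were called after Trrap deletion, 13.8% after 4-OHT (25.7% with the mouse block) and 30.7% in the joint comparison. The share called of each list is given beside its count. Of 25 genes of the ATF4 and amino acid response, 9 were lower and 1 higher after Trrap deletion (40% called, against 31.7%), with a median of -0.15. Of all tested genes 15.0% were lower. Pycr1 (-1.11 ± 0.16, adjusted p = 0.000606), which makes proline, Eif4ebp1 (-0.89 ± 0.19, adjusted p = 0.00546), a translation repressor, Ddit4 (-0.81 ± 0.22, adjusted p = 0.0162), an mTORC1 inhibitor, and Vldlr (-0.63 ± 0.22, adjusted p = 0.0464), a lipoprotein receptor, had the largest log2 fold changes (± SE). Atf4 itself was lower (-0.43 ± 0.10, adjusted p = 0.00667). After 4-OHT 3 genes of this list were higher (Trib3, Vldlr and Stc2) and 3 lower (Phgdh, Cth and Psph), that is 24% against 13.8%, with a median of 0.23. The mouse block called 11, and without mouse 36 there were 3. In the joint comparison 4 were lower (Pycr1, Phgdh, Atf4 and Gpt2), 16% against 30.7%, and the median was -0.01, with 7 called without the untreated culture of mouse 36.

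Of 29 tested genes of amino acid sensing by mTORC1, 5 were higher and 4 lower after Trrap deletion, with a median of -0.000659. These 31.0% were no larger a share than the 31.7% of all tested genes. The called genes with the largest log2 fold changes were Fnip2 (-0.96 ± 0.10), a partner of folliculin, Mlst8 (0.64 ± 0.08), an mTORC1 subunit, Nprl3 (0.56 ± 0.06) of the inhibitory GATOR1 complex and Mios (-0.47 ± 0.13) of GATOR2, and 5 were called without the cultures of mice 36 and 39. After 4-OHT 2 were higher and 5 lower (24.1% against 13.8%, median -0.07). The alternatives called 3 (no filter on low counts) to 10 (mouse block, or labelled sex), with 4 without the untreated culture of mouse 24 or the 4-OHT culture of mouse 19, 24 or 35. The joint comparison gave 6 and 5 (37.9% against 30.7%, median -0.02). Of the other amino acid carriers, outside the families above, 4 of 14 were higher after Trrap deletion (28.6% against 31.7%, median 0.14), namely Slc17a7 (under 1 CPM), Slc25a44, the cystine exporter Ctns and Slc15a4. That number fell to 2 without the 4-OHT culture of mouse 24, 35 or 36 or the Fl/Fl 4-OHT culture of mouse 37, or without the cultures of mice 36 and 39. After 4-OHT 1 of 13 was higher (Slc22a4, 2.26 ± 0.37) and 1 lower (Ctns, -0.56 ± 0.10), with a median of 0.03 and a share of 15.4% against 13.8%. DESeq2 called 6 and the block 5, as did the fits with labelled sex and with all 15 libraries. Without the untreated culture of mouse 24 or 36, or without mouse 36 altogether, 4 were called. The joint comparison had 4 higher and 1 lower of 15 (33.3% against 30.7%, median 0.15).

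Of 15 genes listed for glutamate, glutamine and GABA metabolism, 3 were higher (Glyctk, Aldh5a1 and Got2) and 1 lower (Asns) after Trrap deletion (26.7% against 31.7% of all tested genes), with a median of 0.12 and 2 called without the cultures of mice 36 and 39. Glyctk is a glycerate kinase and no enzyme of these compounds, but it is included in the counts of this list. After 4-OHT the glutaminase Gls2 was higher (1.26 ± 0.28, adjusted p = 0.0134) and the GABA enzymes Gad1 (-1.04 ± 0.26, adjusted p = 0.0235) and Abat (-0.92 ± 0.20, adjusted p = 0.0126) and the glutamate dehydrogenase Glud1 (-0.55 ± 0.12, adjusted p = 0.012) were lower (26.7% against 13.8%), with a median of 0.03 and 8 called under the block. The joint comparison had 5 higher and 3 lower (53.3% against 30.7%, median 0.04).

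Of 14 tested genes of taurine, creatine and glycine metabolism, 4 were higher and 1 lower after Trrap deletion (35.7% against 31.7%, median 0.18). The higher ones were Ckmt1 (1.41 ± 0.25), a mitochondrial creatine kinase, the creatine-making enzyme Gamt (0.68 ± 0.19), the taurine-making enzyme Csad (0.67 ± 0.13) and Sardh, while Cdo1 (-0.77 ± 0.18), which oxidises cysteine on the way to taurine, was lower. After 4-OHT Gatm and Gldc were lower (14.3% against 13.8%, median -0.20), with 0 called by edgeR without the 4-OHT culture of mouse 19 or without mouse 36 altogether, 1 called without the 4-OHT culture of mouse 24, 26, 35 or 36 or the untreated culture of mouse 19, 35 or 36, and 4 of the 14 genes under an unadjusted p of 0.05 with all cultures. Of all 19 alternatives, some of them other processing, 13 called 0 or 1 gene of this list. The joint comparison had 3 higher and 1 lower (28.6% against 30.7%, median -0.05), with 2 called without the untreated culture of mouse 35 or the Fl/Fl 4-OHT culture of mouse 27 or 28 or without the cultures of mice 36 and 39. Of 10 tested genes of glutathione synthesis from cystine, Ggt1 (2.01 ± 0.20) and Gss were higher and Txnrd1 lower after Trrap deletion (30% against 31.7%, median -0.02). Of 11 tested after 4-OHT, Ggt1 was lower (-1.60 ± 0.22, 9.09% against 13.8%, median -0.08), with 4 called under the block and 2 without the untreated culture of mouse 24. In the joint comparison Ggt5 was lower (9.09% against 30.7%, median -0.07), and the call was lost without the Fl/Fl 4-OHT culture of mouse 27 or 39 and without the cultures of mice 36 and 39. Of all 18 alternatives, 7 changed the number called in this list, to 0 or 2.

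**Figure D5:**
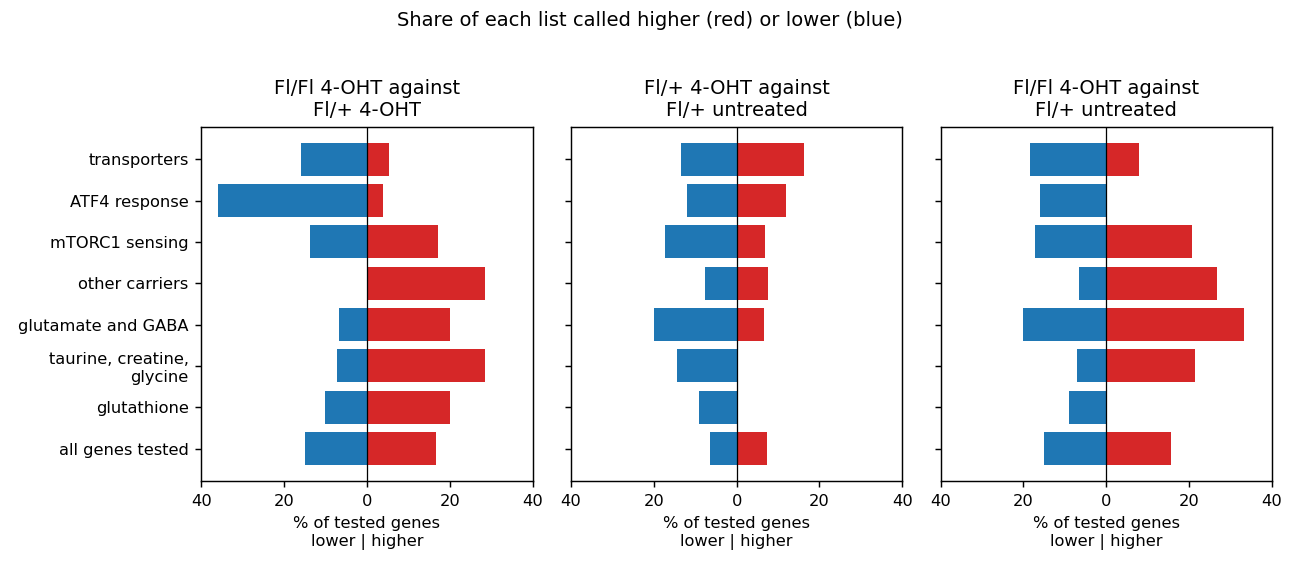
Share of the tested genes of each list (y) called lower (blue, to the left) or higher (red, to the right) at an adjusted p under 0.05, in percent (x), for the 3 comparisons. The ATF4 response had 9 of 25 genes lower after Trrap deletion, and the bars for all tested genes stand at the bottom.

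Markers of other cell types were counted in the same comparisons, against the shares of 31.7%, 13.8% and 30.7% of all tested genes given above. Of 12 oligodendrocyte lineage markers 7 were higher after 4-OHT (58.3%), among them Pdgfra, Sox10 and Mbp, 8 were higher and Olig1 lower in the joint comparison (75%), and 1, Mobp, was higher after Trrap deletion (8.33%). They had summed levels of 3469 to 4535 CPM in Fl/+ untreated, 3398 to 4697 in Fl/+ 4-OHT and 3626 to 5595 in Fl/Fl 4-OHT cultures. Of 11 astrocyte markers 5 were lower and Gfap higher after 4-OHT (54.5%), 6 were lower and Gfap higher in the joint comparison (63.6%), and Aldoc was higher after Trrap deletion (9.09%), with summed levels of 12049 to 14992, 8831 to 11458 and 9395 to 12570 CPM. Neuronal markers summed to 902 to 1187, 863 to 1047 and 620 to 858 CPM, with Gad2, Slc17a6, Slc17a7 and Slc32a1 averaging under 1 CPM. Of 11 tested, 2 were higher and 2 lower after Trrap deletion (36.4%), and 1 was higher and 6 were lower in the joint comparison (63.6%), while 1 of 10, Gad1, was lower after 4-OHT (10%). Of 11 neural stem cell markers, 4 were lower after Trrap deletion (36.4%), 1 was higher and 3 were lower after 4-OHT (36.4%), and 5 were lower in the joint comparison (45.5%). They summed to 7234 to 10414 CPM in Fl/+ untreated, 7572 to 9669 CPM in Fl/+ 4-OHT and 5828 to 9942 CPM in Fl/Fl 4-OHT cultures. Ependymal markers summed to 33.7 to 71.7 CPM in Fl/+ untreated, 46.3 to 97.5 CPM in Fl/+ 4-OHT and 83.7 to 112 CPM in Fl/Fl 4-OHT cultures. Of the 3 tested, 2 were higher after Trrap deletion and 2 in the joint comparison. Endothelial markers summed to 13.3 to 26.0 CPM in Fl/+ untreated, 21.6 to 63.8 CPM in Fl/+ 4-OHT and 22.2 to 48.4 CPM in Fl/Fl 4-OHT cultures, and 1 of the 2 tested, Flt1, was higher after 4-OHT. Mesenchymal markers summed to 3.29 to 11.9, 5.37 to 10.5 and 6.88 to 19.9 CPM in the same order of groups. Of the 4 tested 1, Rgs5, was higher in the joint comparison. Microglial markers summed to at most 2.01 CPM. The part of these shifts in the transporter values was not tested.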

How the data were processed

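Poly(A) RNA was sequenced by the authors from stranded libraries. Per the labels' processing notes and the study's methods, reads were converted with bcl2fastq 1.8.4, mapped to the mouse genome GRCm38 with STAR 2.5.4b and assigned to genes, if uniquely mapped and on the right strand, with featureCounts 1.5.0. What the authors deposited are unnormalized counts, 1 per gene and culture for 15 cultures. Reads shared by near-identical copies were not counted. PCR copies were not removed by molecular identifiers, and floors of 3 counts cover counting error only. IDs were matched to GENCODE (GRCm38) symbols and positions for 53706 of 53801 genes. Groups, mouse numbers, sex and age come from the labels, and 4-OHT was given for 5 days per the labels, while the study's methods give 3 days in 4-OHT and 2 more in fresh medium. The dose is stated differently in the sources and is not given here.

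Each comparison was fitted on its own 10 libraries over all genes with edgeR 4.0.16 in R 4.3.3 (filterByExpr with a minimum count of 10, TMM scaling, quasi-likelihood F test, Benjamini-Hochberg adjusted p under 0.05). CPM use TMM-scaled sizes over 15 libraries, and the SE is that of the log2 fold change. The Fl/+ cultures with and without 4-OHT share their mice, and deviations of 15435 genes correlated within a mouse with r of 0.156 to 0.626 and between mice with -0.549 to 0.339, so the mouse number was a block in an alternative. Other alternatives were DESeq2 1.42.0, its size factors, library size alone, other count filters, labelled sex, all 15 libraries in 1 fit, and each culture left out. Leaving out the cultures of mice 36 and 39 was added after the data had been seen. The main edgeR fit was also run on simulated counts with known fold changes. These were drawn independently for each culture, without a mouse effect or an outlying culture, so they cannot test the pairing or such cultures. Promoters came from RefSeq (GRCm38.p6), and 43 of the 61 genes had a window.

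Members and lists were chosen with earlier results of these data known. Named with values were members called in at least 1 comparison with a mean of at least 1 CPM; values in every library were given for the 12 of these with the largest log2 fold change in the Trrap deletion and in the 4-OHT comparison and for 8 chosen by name (Slc3a2, Slc7a5, Slc7a11, Slc7a1, Slc1a5, Slc38a1, Slc38a2 and Slc6a9). The values of 1 member are not reported here, and it is included in the counts and medians over members. Of each list up to 4 called genes were named. Ddit3 of the ATF4 list had no single match and was left out. Other list genes, such as Atf4, were named after their values were seen. No separate batch of cultures is stated in the labels.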

Additional observations from a re-analysis of the deposited data

Results flagged for a closer look

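Over 35 genes that averaged 1 CPM or more and the 3 groups of 5 cultures, 12 of 105 gene and group pairs had 1 culture far from the other 4 by Dixon's test, which flags about 1 in 20 by chance. The Fl/Fl 4-OHT culture of mouse 37 accounted for 4 of them, being low for Slc38a3 (213 CPM) and Slc43a1 (1.005 CPM) and high for Slc6a17 (64.37 CPM) and Slc7a14 (7.269 CPM). In the same group mouse 29 was high for Slc38a6 (9.832 CPM) and mouse 27 for Slc7a10 (4.815 CPM). Of the Fl/+ untreated cultures, mouse 24 was high for Slc38a1 (154 CPM) and Slc38a9 (16.46 CPM) and mouse 19 low for Slc6a8 (73.27 CPM). Of the Fl/+ 4-OHT cultures, mouse 26 was low for Slc7a1 (65.53 CPM) and high for Slc7a10 (7.11 CPM), and mouse 19 was high for Slc7a14 (4.968 CPM).

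A test in edgeR of whether the difference between Fl/Fl 4-OHT and Fl/+ 4-OHT cultures depended on the labelled sex called 1 of 38 members, Slc6a15 (log2 -2.468, adjusted p = 0.0251). Over all genes 1103 of 15036 were called in this test, and 14 members had an unadjusted p under 0.05. The Fl/Fl 4-OHT cultures labelled female were those of mice 37 and 39 alone, and the sex-linked genes of mouse 39 go against its label, so these values are no comparison of the sexes. Without the culture of mouse 39, 4 of 38 members and 1171 of 15254 genes were called, among them Slc6a15 (-2.42, adjusted p = 0.0326), Slc6a17 (-2.17, adjusted p = 0.015) and Slc43a1 (1.87, adjusted p = 0.0435). That arm is then the culture of mouse 37 alone, which is assumed to vary like the other groups and stood apart for Slc6a17 and Slc43a1 above, so a difference between sexes and the state of 1 culture cannot be told apart.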

How the results depend on the processing

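Of 29 called results for single members, 531 values were obtained under the alternatives, of which 480 kept their direction and their call, 51 lost the call and 0 reversed. The number of members called ranged from 7 to 10 after Trrap deletion (main value 8, 10 with DESeq2), and leaving out single cultures gave 8 to 9. After 4-OHT it was 18 in place of 11 with the mouse number as replicate block and 14 with DESeq2, and 8 to 13 when single cultures were left out. In the joint comparison DESeq2 called 13 in place of 10, and leaving out single cultures gave 7 to 11. Of the 13 uncalled values of named members that were recomputed, 2 changed sign, those of Slc38a1 in the joint comparison (from -0.01 to 0.0766 with library size alone, 0.0189 with labelled sex, and up to 0.20 when single cultures were left out, lowest -0.12) and Slc1a5 after 4-OHT (0.19, with -0.10 to 0.4246 when single cultures were left out, and below 0 without the untreated culture of mouse 26 or the 4-OHT culture of mouse 24). The cause was not tested. Other uncalled members, some with values near 0, were recomputed here with the mouse block alone, after 4-OHT. The block made none of the 11 calls after 4-OHT fail. Slc7a6 lost its call after Trrap deletion with library size alone (adjusted p = 0.0536) and without mice 36 and 39 (0.0563), and after 4-OHT with the size factors of DESeq2 (0.051) and with no filter on low counts (0.082). The largest median of all genes under any scaling was 0.093 on the log2 scale (library size alone, joint comparison). At this depth 17 members with counts could not be tested.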
